A study of Mus musculus with 9 samples.

Results

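The 7 genes described here encode chromatin regulators: Smarcb1, Arid1a and Pbrm1 of the SWI/SNF remodelling complexes, Suz12 of Polycomb repressive complex 2, and the histone-modifying enzymes Kdm6a, Kmt2c and Kat6a. They were chosen by name as chromatin regulators and make up 7 of the 251 genes in the authors' table of dinaciclib against vehicle. RNA was sequenced from EHE17 cells, an endothelial tumour cell line from mouse with the genotype TC+/+ Cdkn2a -/-, which every group carried. Cells received 300 nM dinaciclib for 16 h, 10 µM MGH-CP1 for 16 h, or DMSO as vehicle, with 3 biological replicates per group. Dinaciclib inhibits cyclin-dependent kinases, including CDK9, which releases paused RNA polymerase II into elongation, and MGH-CP1 blocks palmitoylation of the TEAD transcription factors. All samples came from 1 cell line, and the labels name no separate lines or clones. None of the 7 genes was among the 471 genes of the MGH-CP1 table, which holds only genes picked for change. Their levels with MGH-CP1 are therefore not known here, and the values below are for dinaciclib against vehicle.

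SWI/SNF complexes use ATP to slide or evict nucleosomes and keep enhancers and promoters accessible. Polycomb repressive complex 2 places a methyl mark on histone H3 that goes with silencing, and Kdm6a (UTX) removes that mark. Kmt2c (MLL3) methylates histone H3 at enhancers in a complex that also holds Kdm6a, and Kat6a (MOZ) acetylates histone H3. Genes of this kind are often mutated in human cancers, and the authors' deposited table gives malignant rhabdoid tumour for Smarcb1, clear cell ovarian and renal carcinoma for Arid1a, clear cell renal and breast cancer for Pbrm1, endometrial stromal tumour for Suz12 and medulloblastoma for Kmt2c.

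The promoter sequence just upstream of 3 of the genes is shown because their transcripts stood apart in the comparison: Smarcb1 had the largest fall of the 7, Pbrm1 the smallest, and Kmt2c the only rise. The sequences are from RefSeq on GRCm38.p6, run 5′ to 3′ on the gene's own strand and stop at the boundary of the gene given in the authors' table. Capitals mark matches to the GC box GGGCGG on either strand, overlapping matches included. The windows are chr10:75921618-75921864 on the minus strand for Smarcb1, chr14:31018888-31019137 on the plus strand for Pbrm1 and chr5:25498784-25499033 on the minus strand for Kmt2c.
Smarcb1: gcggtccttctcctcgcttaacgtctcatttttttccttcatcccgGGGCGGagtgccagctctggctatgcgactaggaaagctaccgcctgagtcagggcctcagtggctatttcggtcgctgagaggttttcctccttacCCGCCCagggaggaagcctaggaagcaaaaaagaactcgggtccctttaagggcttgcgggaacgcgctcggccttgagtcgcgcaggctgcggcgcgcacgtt
Pbrm1: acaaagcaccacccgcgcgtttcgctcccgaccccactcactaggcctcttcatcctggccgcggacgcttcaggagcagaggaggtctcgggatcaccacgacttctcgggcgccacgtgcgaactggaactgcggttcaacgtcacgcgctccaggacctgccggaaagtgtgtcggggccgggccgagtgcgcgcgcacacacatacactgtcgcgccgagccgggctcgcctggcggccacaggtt
Kmt2c: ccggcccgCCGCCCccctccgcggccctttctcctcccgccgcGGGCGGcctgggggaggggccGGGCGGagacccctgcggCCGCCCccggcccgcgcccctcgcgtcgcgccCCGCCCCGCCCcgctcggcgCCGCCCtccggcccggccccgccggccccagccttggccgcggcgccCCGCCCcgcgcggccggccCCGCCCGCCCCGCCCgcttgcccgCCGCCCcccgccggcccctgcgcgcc
The Kmt2c window held 12 GC boxes and 48 CG dinucleotides at 91.6% G and C. The Smarcb1 window held 2 GC boxes and 21 CG dinucleotides at 59.5% G and C, and the Pbrm1 window held no GC box (0) and 31 CG dinucleotides at 67.2%. Of the windows not shown, that of Suz12 held 3 GC boxes and 37 CG dinucleotides at 73.6%. Arid1a had 1 and 18 at 61.2%, and Kdm6a 1 and 15 at 59.6%. Whether these features go with the change was not tested. Among the 250 bases upstream of 32851 RefSeq promoters, 32.7% held a GC box, and the medians were 6 CG dinucleotides and 52.4% G and C. A TATA box (TATAAA, either strand) was found in 0 of the 6 members with a RefSeq promoter, and in 12.4% of all promoters. A promoter was matched for 6 of the 7 members. These matches describe the letters of the windows, and no binding was measured.

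Dinaciclib libraries held 2541162 to 3316779 counts and vehicle libraries 31852117 to 40020833 counts, a mean vehicle total 12.2 times the dinaciclib total. Each level is therefore a share of its own library. Levels are given as normalised counts, that is, read counts divided by the authors' size factor for the library, or as FPKM, which divides by gene length and library total. Fewer cells, less RNA per cell, and differences in library preparation or sequencing depth cannot be told apart in such bulk samples. The authors' deposited table is a selection: every gene in it differed between these same libraries in the authors' own test (their adjusted p at most 0.0474, their log2 fold change at least 1 in size) and carries a tumour type. Of 248 genes with enough counts to test, 248 (100%) passed an adjusted p of 0.05 in the edgeR quasi-likelihood fit (Benjamini-Hochberg), 75% of them lower and 25% higher. The normalised counts of the groups did not overlap, with dinaciclib lower for 75% and higher for 24.6% of the tested genes. The 7 members all passed the count filter, and 6 were lower and 1 higher, which is near that background, so the count alone says nothing particular about them. Of 29 endothelial markers, 6 were in this table (Kdr, Fli1, Tal1, Lyl1, Gata2 and Notch1), with vehicle means between 9.11 and 90.3 FPKM; their summed FPKM was 33.5 to 42.1 in dinaciclib and 202 to 204 in vehicle libraries. None (0) of 14 fibroblast and mural, 14 blood cell or 10 epithelial markers was in it. The defining endothelial markers Pecam1 and Cdh5 were not among the 6 found, so they have no values here. As the table is a selection, absence from it does not tell whether a gene was expressed.

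The SWI/SNF genes did not move by like amounts. Smarcb1, the core subunit shared by the canonical SWI/SNF assemblies, was 15.7-fold lower with dinaciclib, and Arid1a, the DNA-binding subunit of the BAF form, 11.5-fold lower. Pbrm1, the multi-bromodomain subunit of the PBAF form, was 2.24-fold lower, and its direction depended on how the libraries were scaled. Smarcb1 (ENSMUSG00000000902, chromosome 10, 75896769 to 75921617, GRCm38) had 33.3, 51.4 and 36.0 normalised counts in the dinaciclib libraries, against 687, 610 and 630 in vehicle. Every dinaciclib library was far below every vehicle library. This gave a log2 change of -3.97 (SE 0.233), with a Benjamini-Hochberg adjusted p of 6.12e-07 in the edgeR quasi-likelihood fit. The SE of each edgeR log2 change was back-calculated, as its size divided by the square root of the F statistic of the test. It is approximate for genes with few reads. The dinaciclib values rest on 9, 18 and 11 reads, a sum of 38 with an exact Poisson 95% interval of 26.9 to 52.2, which covers counting error only.

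Arid1a (ENSMUSG00000007880, chromosome 4, 133679008 to 133756769) had 88.8, 108 and 91.7 normalised counts in dinaciclib libraries, against 1083, 1122 and 1133 in vehicle. The groups did not overlap, and the dinaciclib libraries varied less than for the other 6 genes, with a coefficient of variation of 11.0%. Its log2 change was -3.52 (SE 0.162; edgeR adjusted p = 1.48e-07). Pbrm1 (ENSMUSG00000042323, chromosome 14, 31019138 to 31121592) had 340, 542 and 498 normalised counts in dinaciclib libraries, against 1013, 1058 and 1036 in vehicle. Here too every dinaciclib library was below every vehicle library, with replicate 1 the lowest. The log2 change was -1.17 (SE 0.181; edgeR adjusted p = 0.000265), but it was 0.22 with TMM factors and 0.50 with median-of-ratios factors computed over the listed genes. Those factors take most of the listed genes as unchanged and move the median log2 change of all tested genes by 1.38 and 1.65, while library totals move it by 0.13. In Pbrm1, 15 exon bases (0.17%) are shared with Gnl3 on the opposite strand.

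**Figure D1:**
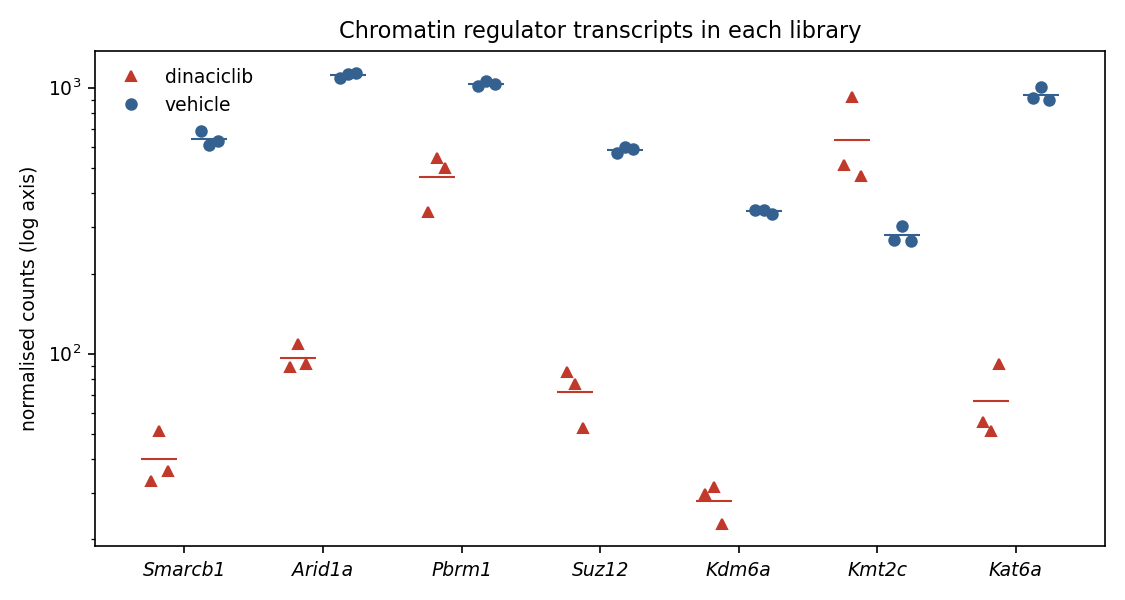
Normalised counts (log axis) of the 7 genes in each of 3 dinaciclib libraries (triangles) and 3 vehicle libraries (circles), with horizontal bars at the group means. The dinaciclib libraries lie below all vehicle libraries for 6 genes and above them for Kmt2c.

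Suz12, the subunit that Polycomb repressive complex 2 needs for its methyltransferase activity, was 8.20-fold lower with dinaciclib. Suz12 (ENSMUSG00000017548, chromosome 11, 79993106 to 80034123) had 85.1, 77.0 and 52.4 normalised counts in dinaciclib libraries, against 570, 597 and 590 in vehicle. The groups were well apart, and dinaciclib replicate 3 was the lowest. The log2 change came to -3.04 (SE 0.222; edgeR adjusted p = 2.27e-06). Reads of a non-coding gene on the opposite strand, Gm26563, cannot be told from those of Suz12 over 178 exon bases (3.6%), since the libraries carry no strand mark.

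The demethylase and methyltransferase genes of the enhancer methylation complex went opposite ways. Kdm6a (ENSMUSG00000037369, chromosome X, 18162575 to 18279936) had 29.6, 31.4 and 22.9 normalised counts in dinaciclib libraries, against 346, 347 and 334 in vehicle. It had the fewest reads of the 7 in each dinaciclib library, at 8, 11 and 7, a sum of 26 with an exact Poisson 95% interval of 16.98 to 38.1. The level was 12.2-fold lower, a log2 change of -3.61 (SE 0.239; edgeR adjusted p = 1.30e-06).

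Kmt2c (ENSMUSG00000038056, chromosome 5, 25271798 to 25498783) had 514, 922 and 465 normalised counts in dinaciclib libraries, against 266, 303 and 265 in vehicle. All dinaciclib libraries were above all vehicle libraries, and replicate 2 stood well above the other two. Kmt2c was 2.29-fold higher, a log2 change of 1.19 (SE 0.270; edgeR adjusted p = 0.00237), or of 0.81 without dinaciclib replicate 2. In reads, Kmt2c had 139, 323 and 142 in dinaciclib libraries and 820, 1004 and 1028 in vehicle, so that the rise is in its share of a much smaller library. A transcript of unsettled status on the opposite strand, Gm42585, overlaps 274 of its exon bases (1.35%).

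Kat6a, the acetyltransferase gene, was 14.2-fold lower with dinaciclib. Kat6a (ENSMUSG00000031540, chromosome 8, 22859535 to 22943259) had 55.5, 51.4 and 91.7 normalised counts in dinaciclib libraries, against 917, 1004 and 896 in vehicle. The groups did not overlap, and dinaciclib replicate 3 was the highest. The difference was -3.83 on the log2 scale (SE 0.234; edgeR adjusted p = 7.88e-07). The dinaciclib values rest on 15, 18 and 28 reads, a sum of 61 with an exact Poisson 95% interval of 46.7 to 78.4.

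Across the 7, the median log2 change was -3.52, beside -1.83 for all genes tested, whose quartiles were -2.96 and -0.52. Counted from the steepest fall of the 248 tested genes, Smarcb1 was at place 28, Kat6a at 32, Kdm6a at 37, Arid1a at 42, Suz12 at 58, Pbrm1 at 178 and Kmt2c at 193. Relative to the mean, the spread between libraries was larger with dinaciclib for every member. The coefficient of variation of normalised counts was 11.0% for Arid1a to 39.6% for Kmt2c in dinaciclib libraries, against 2.01% for Kdm6a to 7.78% for Kmt2c in vehicle. The lower depth of the dinaciclib libraries moves with this spread, and its part in it was not tested.

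**Figure D2:**
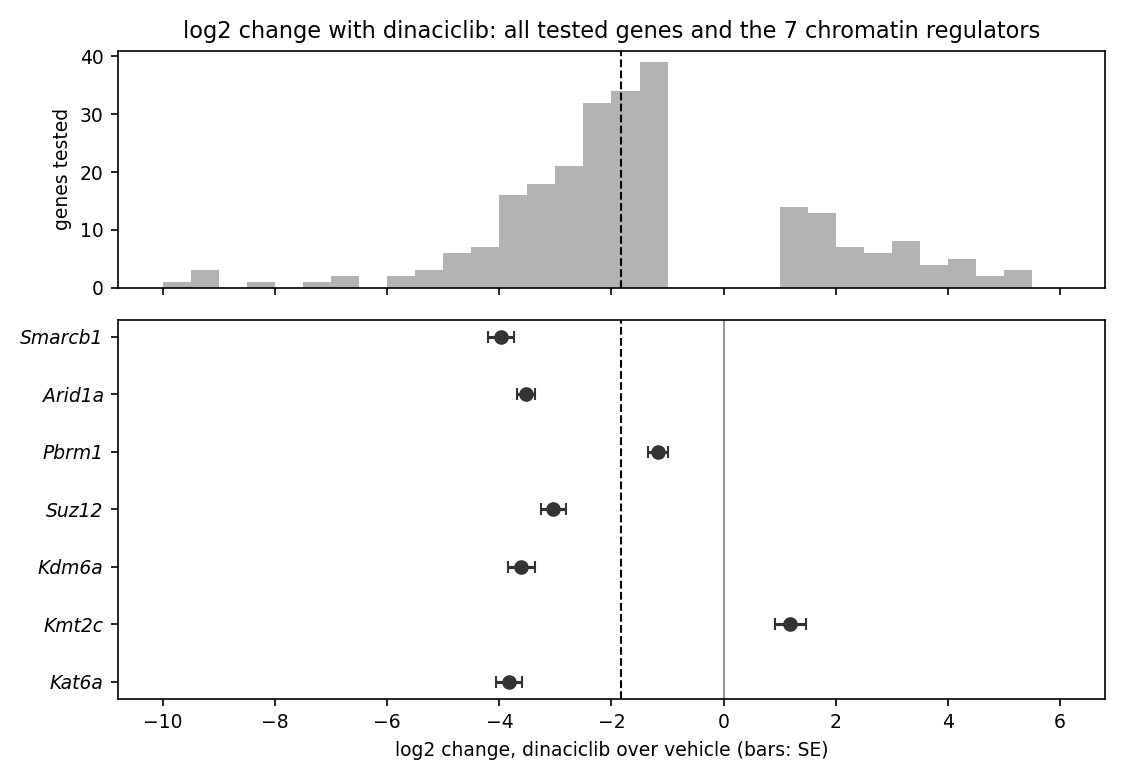
Top, histogram of the log2 change with dinaciclib for all 248 tested genes; bottom, the log2 change of each of the 7 genes with its SE. The dashed line is the median of all tested genes (-1.83). Pbrm1 (-1.17) and Kmt2c (1.19) lie above it, and the others between -3.97 and -3.04; genes with 0 counts in dinaciclib are plotted at fitted values.

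The order of levels among the genes differed between the groups. Per length, in dinaciclib libraries the means ran from Pbrm1 (5.52 ± 1.26 FPKM) and Kmt2c (3.31 ± 1.29) through Suz12 (1.54 ± 0.363), Arid1a (0.891 ± 0.0939), Kat6a (0.767 ± 0.260) and Smarcb1 (0.539 ± 0.128) to Kdm6a (0.354 ± 0.0551; SD, n = 3). The ranges overlapped for Pbrm1 and Kmt2c, for Arid1a and Kat6a, and for Kat6a and Smarcb1, and the other neighbours in this order were separate. In vehicle libraries Suz12 (11.5 ± 0.299 FPKM) and Pbrm1 (11.3 ± 0.264) came first, followed by Kat6a (9.91 ± 0.609), Arid1a (9.39 ± 0.240), Smarcb1 (7.84 ± 0.472), Kdm6a (3.96 ± 0.0772) and Kmt2c (1.33 ± 0.105; SD, n = 3). There the ranges of Suz12 and Pbrm1 overlapped, as did those of Kat6a and Arid1a. Kmt2c was thus the second of the 7 with dinaciclib and the last in vehicle.

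Within a library the genes can be set against each other with no size factor. Kmt2c made up 24.7%, 30.8% and 19.9% of the summed FPKM of the 7 genes in dinaciclib libraries, against 2.32%, 2.57% and 2.31% in vehicle. Pbrm1 made up 37.5%, 41.5% and 48.9% in dinaciclib libraries, against 20.3%, 20.6% and 20.7% in vehicle. Together Kmt2c and Pbrm1 held more than the other 5 genes in each dinaciclib library and less than them in each vehicle library. Smarcb1 made up 4.10%, 4.39% and 3.95% in dinaciclib libraries, against 15.3%, 13.2% and 14.1% in vehicle. The summed FPKM of the 7 was itself lower, at 10.9, 15.6 and 12.3 in dinaciclib libraries, against 54.6, 56.3 and 54.8 in vehicle.

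**Figure D3:**
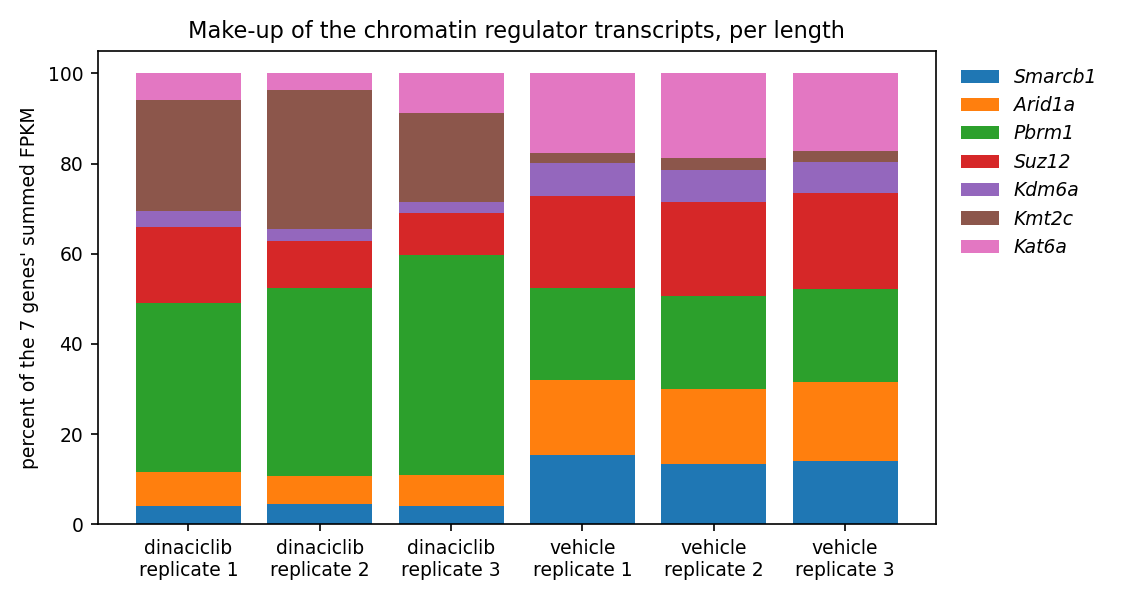
Share of each gene (percent) in the summed FPKM of the 7 genes, for each dinaciclib library (left 3 bars) and each vehicle library (right 3 bars). Kmt2c and Pbrm1 take larger shares in all 3 dinaciclib libraries, and the other 5 genes smaller ones.

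The 21 pairs of members were compared by the log2 ratio of their counts in the same library. The ratios of the dinaciclib and vehicle libraries did not overlap in 16 of 21 pairs, beside 74% of the 30628 pairs of tested genes, so this count too is near the background. Each of these had p = 0.10 in an exact two-sided permutation test, the smallest that 3 against 3 libraries allow, and an adjusted p of 0.131 over the pairs, so no pair could pass 0.05. The ratio of Pbrm1 to Kmt2c moved by -2.32 on the log2 scale (SE 0.268), that of Smarcb1 to Pbrm1 by -2.77 (SE 0.153) and that of Smarcb1 to Kmt2c by -5.09 (SE 0.178). Within SWI/SNF, Smarcb1 against Arid1a moved by only -0.45 (SE 0.118). For Smarcb1 against Kat6a the difference was -0.12 (SE 0.389), and for Arid1a against Kdm6a it was 0.03 (SE 0.120), with overlapping groups in both. The ratio of Kdm6a to Suz12, eraser and writer subunit of the Polycomb mark, moved by -0.51 (SE 0.101). These SEs come only from the spread of 3 ratios per group and include no separate term for counting error. Summed dinaciclib reads were 26 for Kdm6a, 38 for Smarcb1, 66 for Suz12 and 90 for Arid1a. Whether the small shifts exceed counting error was not tested.

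The rest of the chromatin machinery was looked for with 221 gene symbols, of which 24 were in the dinaciclib table and 17 of those were not members. All 17 were lower in the edgeR fit with the authors' size factors, beside 75% of all tested genes, with a median log2 change of -2.57, or -2.49 with genes at 0 counts set to their bound. Under median-of-ratios factors, Kdm5a, Kat6b and Brd3 had log2 changes of 0.36, 0.01 and 0.59, and under TMM factors Kdm5a and Brd3 had 0.10 and 0.33, so that the direction of these genes depended on the scale. Under TMM factors 11 of the 17 were called lower, and under median-of-ratios factors 10 of the 16 that could be tested. Kdm5a, Kat6b, Brd3, Arid2 and Setd2 were called under neither, Smarce1 was not called under median-of-ratios factors, and Prdm1 was not called under TMM factors (edgeR adjusted p = 0.0624) and did not pass the count filter under median-of-ratios factors or library totals.

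Of 28 SWI/SNF genes, 6 were in the table and 6 fell under the authors' factors, but Pbrm1 (above), Arid2 and Smarce1 did not keep that call under every scale. Arid2 had log2 changes of -0.46 with TMM factors and -0.19 with median-of-ratios factors (edgeR adjusted p = 0.0918 and 0.442), and Smarce1 had -0.70 and -0.43 (edgeR adjusted p = 0.0278 and 0.0606). Besides the members, these were Smarce1, a DNA-bending subunit (220 ± 62.3 normalised counts in dinaciclib against 937 ± 18.2 in vehicle, log2 change -2.08), Arid2, the ARID subunit of PBAF (186 ± 46.7 in dinaciclib against 665 ± 16.7 in vehicle, log2 change -1.84), and Bcl7a, which had 0 reads in all dinaciclib libraries against 52.6 ± 2.54 normalised counts in vehicle. Against a floor of 3 counts over the group, Bcl7a was at least 16.2-fold lower under the authors' size factors. Bounds under the other scales were not computed. The PBAF-specific genes Pbrm1 and Arid2 had the smaller falls of the 6, but whether PBAF genes differ from the other subunits was not tested.

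Of 40 genes of Polycomb complexes and their H2A deubiquitinase, 4 were in the table and 4 fell, beside 75% of all tested genes. The counts of this and the other classes were not tested against that share. They are too small to set a class apart. Ezh2, the methyltransferase that Suz12 supports, stood at 45.3 ± 12.5 normalised counts in dinaciclib against 250 ± 7.93 in vehicle, a log2 change of -2.49 with SE 0.238. Asxl1, the partner of the deubiquitinase Bap1, stood at 213 ± 20.5 in dinaciclib against 1271 ± 17.2 in vehicle (log2 change -2.57), and Bap1 at 80.1 ± 57.2 in dinaciclib against 852 ± 20.4 in vehicle (log2 change -3.37).

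Of 36 histone methyltransferase genes and their subunits, 4 were in the table, of which 3 fell and 1, Kmt2c, rose under the authors' factors. Men1, which encodes menin, a subunit of the related MLL1 and MLL2 complexes, had the steepest fall of the 24 genes among those with reads in dinaciclib (20.5 ± 13.6 normalised counts in dinaciclib against 662 ± 39.5 in vehicle, log2 change -5.01 with SE 0.330). Setd2, which methylates histone H3 along transcribed genes, stood at 242 ± 139 in dinaciclib against 769 ± 3.44 in vehicle (log2 change -1.65), but its log2 change was -0.25 with TMM factors and -0.02 with median-of-ratios factors (edgeR adjusted p = 0.577 and 0.954). Prdm1, a repressor with a methyltransferase-like domain, had 0 reads in dinaciclib libraries against 6.54 ± 1.13 normalised counts in vehicle. It was at least 2.02-fold lower under the authors' size factors, a log2 bound of -1.01. TMM and median-of-ratios factors moved the median log2 change by 1.38 and 1.65, more than the size of this bound. The bound therefore does not carry over to those scales. The median log2 change of the 4 was -3.33 as fitted and -1.33 with Prdm1 at its bound.

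Of 20 demethylase genes 3 were in the table and 3 fell under the authors' factors, Kdm5a under those and library totals but not the other 2 scales. Beside Kdm6a, the H3 demethylase gene Kdm5c stood at 229 ± 113 normalised counts in dinaciclib against 1624 ± 45.3 in vehicle (log2 change -2.81), and its relative Kdm5a at 302 ± 86.2 in dinaciclib against 739 ± 13.1 in vehicle (log2 change -1.29). Of 32 acetyltransferase genes and subunits 3 were in the table and 3 fell, Kat6b with the same exception. Kat6b, the paralogue of Kat6a, stood at 55.3 ± 21.9 in dinaciclib against 178 ± 18.4 in vehicle (log2 change -1.64), and Ep300, which encodes p300, at 128 ± 71.4 in dinaciclib against 812 ± 8.51 in vehicle (log2 change -2.63). Of 39 other remodellers, readers and DNA methylation genes 4 were in the table and 4 fell, Brd3 again with that exception, among them the bromodomain reader gene Brd3 (328 ± 133 in dinaciclib against 690 ± 21.9 in vehicle, log2 change -1.06), the histone chaperone gene Daxx (32.9 ± 6.76 in dinaciclib against 282 ± 7.57 in vehicle, log2 change -3.12) and the PHD finger gene Phf6 (48.3 ± 16.4 in dinaciclib against 457 ± 8.36 in vehicle, log2 change -3.23). None (0) of 26 histone deacetylase and corepressor genes was in the table. Of the 221 symbols, 1 was found among the genes listed for MGH-CP1: Dpf3 of SWI/SNF, with 1, 0 and 0 reads in MGH-CP1 libraries against 10, 5 and 10 in vehicle. That list is a selection, so absence from it does not tell whether a gene was unchanged, unexpressed or unmeasured.

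**Figure D4:**
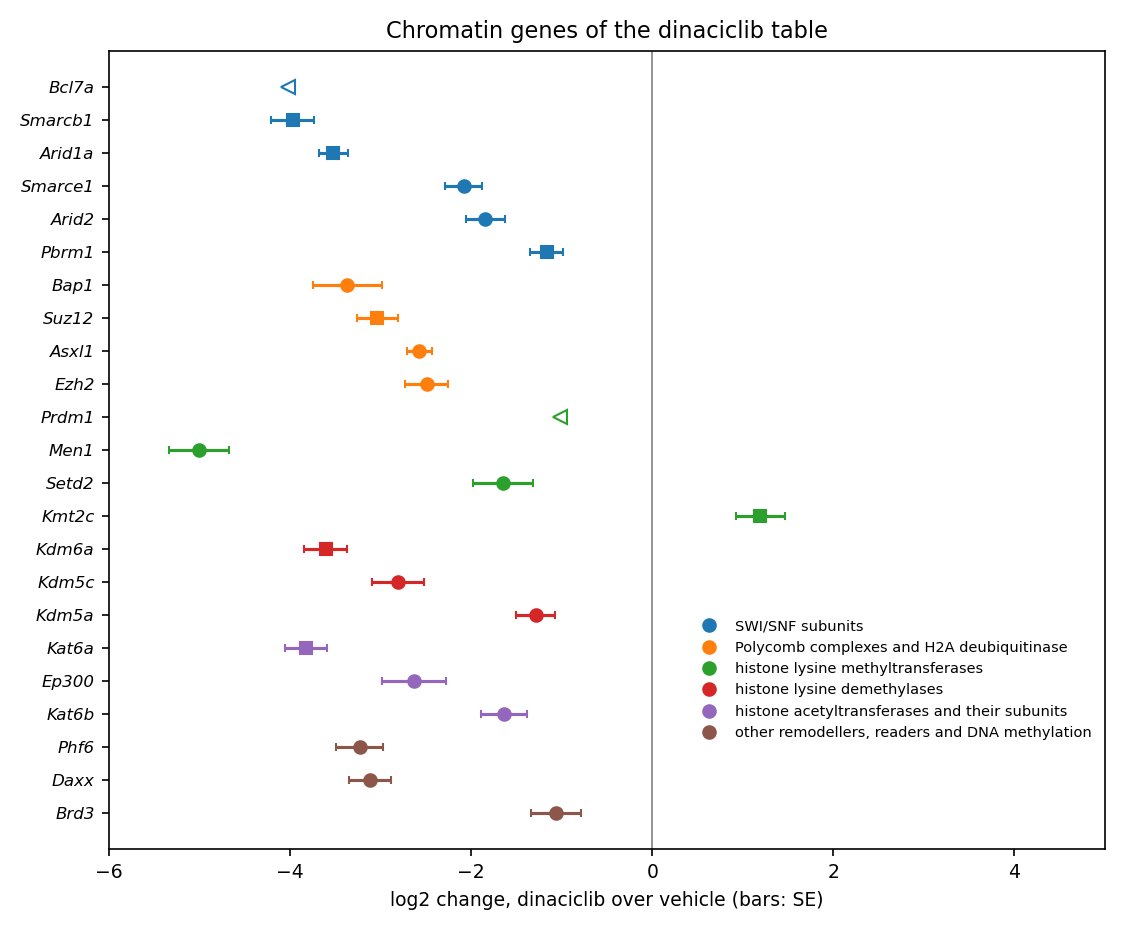
The log2 change with dinaciclib, with its SE, for 23 of the 24 chromatin genes in the table under the authors' size factors, coloured by class. Squares are the 7 genes of the main description, circles the others, and open triangles mark genes with 0 counts in dinaciclib at their bound (Bcl7a, Prdm1). Kmt2c (1.19) is to the right of 0 and the other 22 plotted genes to the left, of which Pbrm1, Kdm5a and Brd3 (TMM and median-of-ratios factors) and Kat6b (median of ratios) move above 0 under other scales.

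The tested genes with the closest pattern over the 6 libraries were found as the smallest root mean square difference of log2(normalised count + 1), each gene set to its vehicle mean. For Kmt2c these were Med12, a Mediator subunit gene (0.185), and Lpp, a focal adhesion gene (0.277). For Pbrm1 they were Tert, the telomerase gene (0.124), and the transcription factor gene Creb1 (0.143). Tert was low, at 13.9 ± 2.66 normalised counts in dinaciclib against 34.2 ± 2.15 in vehicle. The 1 added to each value therefore weighs on its distance. For Smarcb1 the closest was Nfe2l2, the gene of the oxidative stress factor NRF2 (0.218). The next in order, Bcl11b, had 0 reads in all dinaciclib libraries, so that its distance is set by the 1 added to each value and is no measured likeness. Arid1a was closest to the cohesin gene Rad21 (0.145) and the kinase gene Abl1 (0.151), Kdm6a to Nfe2l2 (0.167) and Rad21 (0.178), Suz12 to the spindle gene Numa1 (0.135) and to Daxx (0.175), and Kat6a to the splicing factor gene Srsf3 (0.169) and to Cant1 (0.306). The group difference is part of each pattern, and all genes share the same libraries.

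**Figure D5:**
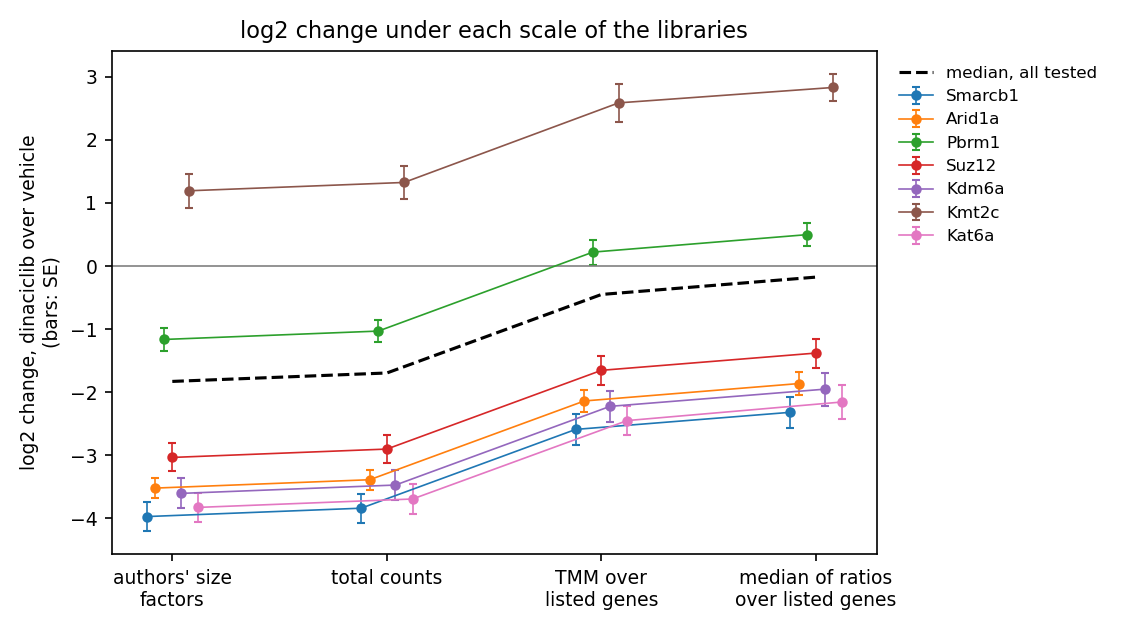
The log2 change of the 7 genes, with SE, under 4 ways of scaling the libraries; the dashed line is the median of all tested genes. All 7 move up together under TMM and median-of-ratios factors over the listed genes, where Pbrm1 is above 0 (0.22 and 0.50), Kmt2c reaches 2.59 and 2.83, and the other 5 stay below 0.

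The scale of the libraries decided how many of all listed genes were called in each direction. Under TMM factors 43.1% of tested genes were lower and 25.4% higher, and under median-of-ratios factors 37.7% and 28.3%. Smarcb1, Arid1a, Suz12, Kdm6a and Kat6a were lower and Kmt2c higher at an adjusted p below 0.05 under each of the 4 scales. The smallest fall of those 5 was that of Suz12 under median-of-ratios factors, with a log2 change of -1.38 (edgeR adjusted p = 0.000473).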

How the data were processed

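Per the submitters' processing notes, the authors ran HISAT2 2.0.5, fastp, DESeq2 1.20.0 and featureCounts 1.5.0-p3. A genome build is not given in the sources used here. GRCm38 was assumed because 242 of 251 genes (96.4%), all 7 members among them, have the same start and end in GENCODE M21. Per the labels' protocols, RNA was selected on poly-T beads and the second strand made with dTTP, which leaves no strand mark.

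Per the file headers, the deposited values are read counts, FPKM, and the authors' own log2 fold change with p-values. The deposited normalised signal equals the count over a size factor particular to each library. These factors, and library totals from count, FPKM and length, were solved for, and 100% of nonzero values in a library pointed to one factor and one total.

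edgeR 4.0.16 in R 4.3.3 (quasi-likelihood test, two-sided) was fitted to the counts of all listed genes in the 6 libraries, with filterByExpr at a minimum count of 10 and the authors' size factors as library scale. TMM over genes picked for change would take most as unchanged and was an alternative, with DESeq2 1.42.0, limma 3.58.1 on log2(FPKM + 0.1), library totals, no filter, an adjusted p of 0.001, a replicate block, thinned vehicle counts and leaving out each library. The test was checked on data simulated with the same library scale that was used to fit them. That check does not address the choice of scale or the selection of the listed genes. P-values were adjusted by Benjamini-Hochberg over all tested genes. Because the authors had picked the genes on these libraries, a call is no independent evidence. Replicate pairs differed by 5.53 to 14.4 times the chi-square expected from sampling noise. The pairs with dinaciclib replicate 2 gave 12.5 and 14.4, dinaciclib replicates 1 and 3 gave 5.53, and vehicle pairs 5.92 to 6.44. In dinaciclib replicates 1, 2 and 3, normalised counts were 55.5, 146 and 39.3 for Bap1, and 155, 402 and 167 for Setd2. They were 200, 354 and 134 for Kdm5c, whereas Ezh2 was lowest in replicate 2, at 55.5, 31.4 and 49.1. The labels say biological replicates, not whether from separate cultures, so p-values measure the spread between these samples. In pairs, 0.5 was added to each count.

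The members and lists were chosen with earlier results of these data known. Named are the 7 members, every chromatin list gene in the table except 1 that is not reported here, and the 2 genes closest to each member. Figures were drawn with matplotlib 3.10.9.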

Additional observations from a re-analysis of the deposited data

How the results depend on the processing

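Over 15 alternatives, Smarcb1, Arid1a, Suz12, Kdm6a and Kat6a kept their direction and their call in each. Pbrm1 changed sign with TMM factors (log2 change 0.22) and with median-of-ratios factors over the listed genes (0.50); the second made 2 members higher in place of 1, and of the 24 chromatin list genes it made 15 lower and 2 higher in place of 23 and 1. The same factors left 107 (TMM) and 93 (median of ratios) of all listed genes lower in place of 186, since both take most listed genes as unchanged. At an adjusted p of 0.001 Kmt2c (log2 change 1.19) lost its call, leaving 0 members and 0 chromatin list genes higher. Leaving out each library in turn gave log2 changes of 0.81 to 1.39 for Kmt2c, -1.29 to -0.99 for Pbrm1 and -4.20 to -3.86 for Smarcb1, and 16 to 19 separate pairs. With the replicate number as a block, 181 genes were lower and 59 higher, and 6 members lower and 1 higher. The deviations of same-numbered libraries had correlations of 0.02, -0.03 and -0.14 over 248 genes. Those of differently numbered libraries ran from -0.08 to 0.105. No pairing by number was seen, but the check cannot exclude it, since each group has only 3 libraries and the labels do not say. Depth limits Kdm6a and Smarcb1 most, at 26 and 38 summed dinaciclib reads. With vehicle counts thinned to the dinaciclib depth, in 1 random draw, their log2 changes were -3.70 and -4.03. In that draw the log2 change of Kmt2c was 0.96, beside 1.19 without thinning, with its call at 0.05 kept. The draw was not repeated, so its sampling noise is not known.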

Other observations

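Spearman's rho across the 248 tested genes was -0.03 between log2 change and the span of the gene and 0.01 between log2 change and merged exon length, given as a description since genes share the same libraries. Among the 7 chromatin regulators Kmt2c has the longest span (227 kb) and the longest merged exons (20291 bases), and Smarcb1 the shortest span (24.8 kb). Kdm6a and Pbrm1, with spans of 117 kb and 103 kb, had log2 changes of -3.61 and -1.17. The longest coding transcripts of GENCODE M21 run from 385 codons in Smarcb1 to 4904 in Kmt2c.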
